A study of Vitis vinifera with 204 samples.

Results

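The 200 genes described here were expressed in green Cabernet Sauvignon berries (Vitis vinifera), fell at the onset of ripening and stayed low until harvest. They were chosen from 29971 gene IDs in a table of RPKM, read numbers scaled to the length of the gene and to the mapped reads of the library. A gene had to reach 1 RPKM in at least 3 libraries, which 20770 did. For each of these, the mean of log2(RPKM + 1) was taken per season and then over the 3 seasons in green berries (before day 0), in early ripening (days 8 to 22) and at harvest (the last 2 time points of a season). Among the 17867 genes whose mean moved by less than 1 between early ripening and harvest, the 200 with the largest fall from green to early ripening were kept. The size of that fall and the flat late course are therefore how the genes were picked, and are given as a description only.

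The berries grew in a vineyard near Modesto, California, on 5C rootstock with scions of clone FPS 8, and only pericarp, the skin and flesh, was extracted. Clusters had been thinned to take away 50% or 75% of the crop load. Both intensities are thinned vines, and unthinned vines were not analysed here. Each of 34 season time points had 3 libraries per intensity, 102 per intensity in all, and each library came from a pool of 60 berries of 6 clusters. The time points ran from day -28 to day 80 in 2012, from day -20 to day 43 in 2013 and from day -14 to day 63 in 2014, counted from veraison, the day labelled 0. Pools of one intensity came from the same 3 vineyard rows, so the spread between replicates is that between pools of these rows, and p-values refer to it. Differences between intensities therefore cannot be told apart from differences between rows.

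Grape berries grow in 2 phases. In the green phase the pericarp cells divide and enlarge, the flesh is hard and acids build up, and the skin still photosynthesises. At veraison the berry softens, starts to store sugar and, in dark cultivars, colours, and much of the green programme is replaced by the ripening programme. Nothing in the sources used here pairs the gene IDs with names, so the genes are described by their ID and course and no function is given to any of them.

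In green berries the median RPKM of a gene over the 48 libraries ranged from 4.04 to 3564, and its median over the 200 genes was 28.8. A green median of at least 10 RPKM was found for 191 genes, of at least 50 RPKM for 59 and of at least 100 RPKM for 19. On day 0 the median over genes was 2.15 RPKM, in early ripening 0.596 RPKM and at harvest 0.198 RPKM. By single genes, 126 of the 200 genes had an early ripening median under 1 RPKM and 147 had a harvest median under 1 RPKM. At harvest 188 genes were under 5 RPKM, and 5 were listed at 0 in all 36 libraries. Not all went silent: VIT_19s0090g01000, singled out after its values were seen as the most abundant, still had a median of 328 RPKM in early ripening and 315 RPKM at harvest.

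As a share of all RPKM in a library, the 200 genes made up 0.290% to 5.10% in green berries, with a median of 1.90% over 48 libraries. On day 0 the share was 0.0974% to 1.55% (median 0.186%, 18 libraries), and in early ripening 0.0520% to 0.146% (median 0.0813%, 48 libraries). At harvest it was 0.0599% to 0.122% (median 0.0799%, 36 libraries). The green and early ripening ranges did not overlap. In bulk pericarp, fewer cells that express such genes and less RNA per cell cannot be told apart.

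**Figure D1:**
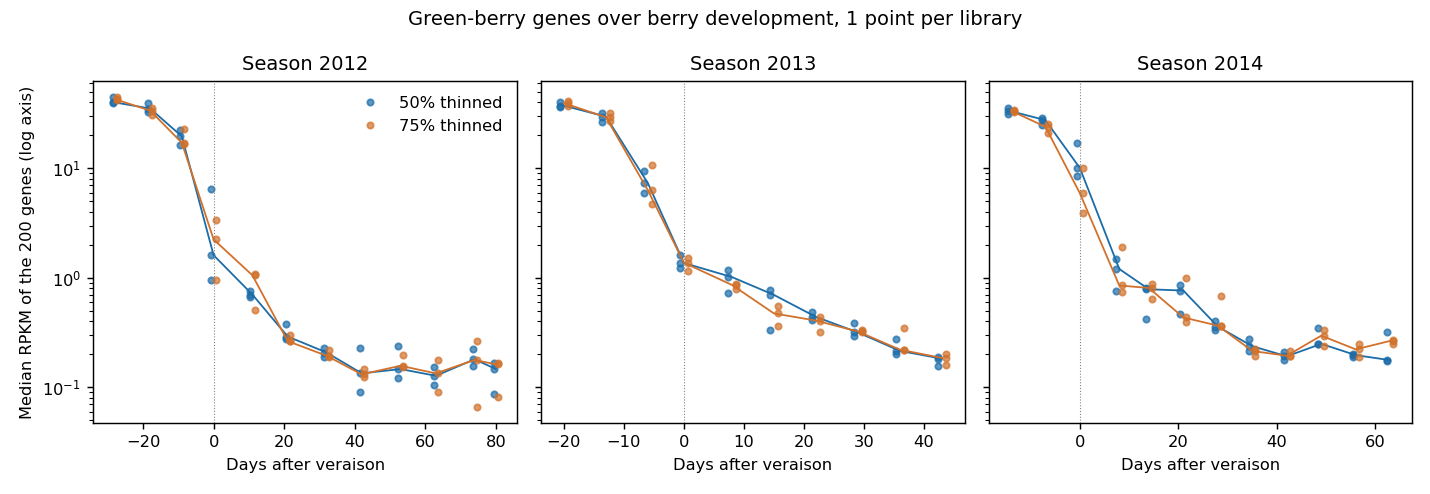
Median RPKM of the 200 genes in each library (log axis) against days after veraison, with 1 panel per season, blue for 50% and orange for 75% thinning, and lines through the median of the 3 libraries. In each season the libraries start between 31.1 and 45.1 RPKM. They drop steeply around day 0, where 2014 is higher than the other seasons, and level off under 1 RPKM.

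The log2 fall from green to early ripening ranged from -7.00 to -3.04, with a median of -3.60, whereas the median of all 20770 genes was -0.24. Just inside the limit were VIT_04s0008g01720 at -3.05 and VIT_15s0021g02510 at -3.04, and just outside were VIT_17s0000g08920 at -3.04 and VIT_08s0007g01590 at -3.04. The limit therefore cuts through a continuous range. A fall at least as deep was found in 314 genes: the 200 described here, 109 that fell by at least 1 more by harvest, and 5 that rose by at least 1. Within the bound, 170 of the 200 genes were lower at harvest than in early ripening, with a median log2 difference of -0.29. The median over all 20770 genes, which were not held to the bound, was 0.05. This late difference was part of the rule, so these values are a description.

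The deepest fall was that of VIT_18s0122g00290. Its RPKM over the 6 libraries of day -14 of 2014 was 241 at the lowest, 270 at the median and 315 at the highest. On day -7 these values were 203.9, 236 and 273, on day 0 they were 17.2, 52.9 and 165, and on day 8 they were 0.0573, 1.12 and 7.70. In 2013 it went from 169, 205 and 257 on day -13 to 12.2, 21.0 and 54.8 on day -6 and 0.116, 0.465 and 2.56 on day 0. In 2014 the drop lay between day -7 and day 8, and in 2013 it had begun by day -6, which still counts as green here.

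VIT_02s0154g00320, with the second deepest fall, followed another course. In 2012 its lowest, median and highest RPKM were 2096, 2567 and 3134 on day -28, then 257, 381 and 705 on day -18, 12.0, 37.0 and 62.1 on day -9, and 1.27, 1.53 and 6.40 on day 0. The day -28, day -18 and day -9 libraries did not overlap. This gene was thus mostly down before veraison, whereas VIT_18s0122g00290 held 81.7 to 193 RPKM on day -9 of that season.

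To ask whether the fall recurs in a season not used to choose genes, the rule was applied to 2 seasons and the fall was tested in the third with limma across all 20770 genes (adjusted p under 0.05 and at least 2-fold, here and in the other comparisons of time points and seasons). Of the 200 genes chosen on 2013 and 2014, 199 fell in 2012, where 20.6% of all genes fell. In 2013, 200 of the 200 chosen on the other 2 seasons fell (16.5% of all genes), and in 2014 it was 197 (18.7% of all genes). In each left-out season 0 of them rose, where 5.63%, 4.58% and 4.64% of all genes rose in 2012, 2013 and 2014. The median log2 change of the chosen genes was -3.72, -3.29 and -3.70 in 2012, 2013 and 2014, against -0.32, -0.18 and -0.23 over all genes. In these seasons 166, 132 and 159 of the 200 genes fell at least 8-fold. The share of all genes that fell this far was not computed. The 4 that did not pass at adjusted p under 0.05 and 2-fold were VIT_14s0128g00200 in 2012 and VIT_10s0003g00100, VIT_00s0346g00080 and VIT_00s1240g00010 in 2014. They were named after their values were seen. These lists shared 171, 183 and 174 genes with the 200.

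Most of the genes moved along 1 curve. The correlation of a gene with the mean of the other 199 over all libraries had a median of 0.972 and a lowest value of 0.409, and was under 0.9 in 13 genes. All share the same libraries and were chosen for the same fall, so this describes how alike they were and is no test. The 13 include genes that were already falling early in the green stage, genes that rose in it, and genes whose values jump between replicate pools, all described below.

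The genes differed in how early they went down. Within the green stage of 2012, 105 of the 200 genes were lower on day -9 than on day -28, where 6.75% of all tested genes were lower, and 9 were higher (4.29% of all genes). The median log2 change of the 200 was -1.11 and that of all genes 0.00, rounded from -0.004. By the time point with the highest mean level, 143 genes were highest on day -28, 46 on day -18 and 11 on day -9. For most of these genes the first sampled time point of 2012 was thus the highest. Green time points are part of the mean by which the genes were chosen, but the direction within the green stage was not used.

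The largest decrease within the green stage of 2012 was that of VIT_12s0059g01830. Its lowest, median and highest RPKM were 270, 312 and 465 on day -28, 3.51, 5.04 and 9.42 on day -18, and 0, 0.349 and 0.907 on day -9. None of the 3 time points overlapped. From day -28 to day -9 it fell by 7.91 on the log2 scale (SE 0.21, limma adjusted p = 3.56e-71). This gene was therefore nearly gone before veraison. VIT_02s0154g00320, described above, had the second largest decrease (log2 change -6.31, SE 0.20, limma adjusted p = 1.03e-61).

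The opposite course was that of VIT_00s0323g00060, which had 17.3, 23.2 and 62.3 RPKM (lowest, median, highest) on day -28, 253, 346 and 539 on day -18, and 351, 510 and 660 on day -9. It rose by 4.13 on the log2 scale (SE 0.31, limma adjusted p = 2.42e-25), and no day -28 library reached any day -18 library. VIT_08s0007g06970 rose by 2.73 (SE 0.29, limma adjusted p = 2.11e-15), from 0, 2.18 and 4.75 RPKM to 3.73, 17.2 and 29.2 RPKM, where the ranges overlapped slightly and 3 of the 6 libraries of day -28 are listed at 0. In 2012 both genes were thus higher late in the green stage than at its start. Of the 9 genes that rose in 2012, 0 were called higher and 0 lower over the shorter green intervals of 2013 and of 2014.

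Over the shorter green intervals of the other seasons fewer genes changed. In 2013, 26 of the 200 genes were lower on day -13 than on day -20 (0.828% of all genes) and 0 were higher (0.486% of all genes). In 2014, 17 were lower on day -7 than on day -14 (0.337% of all genes) and 5 were higher (1.58% of all genes). The intervals differ in length and in distance to veraison, so the counts are not comparable across seasons. Of the 26 genes of 2013, 22 were also lower in 2012, which is 84.6% of the 2013 list and 21.0% of the 2012 list. Of the 17 genes of 2014, 15 were lower in 2012, 88.2% of the 2014 list and 14.3% of the 2012 list. As a base for both shares, 52.5% of the 200 genes were lower in 2012. All 3 seasons shared 9 genes.

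A pair with adjoining IDs shows that likeness in ID did not mean likeness in course. In 2014 VIT_02s0154g00320 fell from 330, 462 and 593 RPKM on day -14 to 62.8, 119 and 203 RPKM on day -7 (log2 change -1.96, SE 0.20, limma adjusted p = 1.56e-14). VIT_02s0154g00310, named after its values were seen, had 16.7, 17.1 and 77.0 RPKM on day -14 and 37.9, 64.3 and 138 RPKM on day -7, a rise of 1.51 (SE 0.27, limma adjusted p = 3.63e-06). In 2012 both fell from day -28 to day -9. VIT_01s0011g04080 had the second largest decrease of 2014, from 36.4, 61.4 and 92.2 RPKM to 11.6, 25.7 and 33.4 RPKM (log2 change -1.39, SE 0.15, limma adjusted p = 2.40e-14).

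The 200 genes held 18 pairs whose IDs share their first part and differ by at most 50 in the last number, and 35 genes had such a partner. In 8 of the pairs the numbers were 10 apart. Green levels within a pair differed by 0.05 to 5.04 on the log2 scale, with a median of 1.30, and 6 of the 18 pairs were within 1. Around the 200 genes, 283 tested genes had the next ID without being among them. Their log2 fall had a median of -0.41, and 25.1% of them fell by at least 1 against 17.9% of all tested genes. How the authors assigned reads between near-identical copies is stated in no source used here, so pair members with like values are uncertain as separate measurements.

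The fall was less far along on day 0 of 2014 than on day 0 of the other seasons. For each gene, the part of its log2 fall from the green to the early ripening mean that was present on day 0 was computed. Its median over the 200 genes was 77.7% in 2012 (quartiles 69.7% and 86.1%), 86.1% in 2013 (quartiles 78.8% and 95.0%) and 43.3% in 2014 (quartiles 34.2% and 52.9%). The SD of this median over replicates was 7.40, 3.38 and 12.7 percentage points in 2012, 2013 and 2014. The midpoint of the fall, the day at which a gene crossed halfway between its first green time point and its early ripening mean, had a median of day -4.89 in 2012, day -6.39 in 2013 and day 0.67 in 2014. The midpoint lay before day 0 for 189 genes in 2012, for 200 in 2013 and for 80 in 2014. Of the 200 genes, 192 had a later midpoint in 2014 than in both other seasons. Green sampling began on day -28 in 2012, day -20 in 2013 and day -14 in 2014, and many genes were already falling in the green stage. The green reference levels are therefore not alike between seasons, and their part in these timing differences was not tested.

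The order in which genes fell was partly the same each season. Across the 200 genes, the Spearman correlation of midpoint days was 0.71 between 2012 and 2013, 0.65 between 2012 and 2014 and 0.60 between 2013 and 2014. Genes are not independent replicates, and the midpoints of a season come from the same libraries, so these are descriptions. VIT_02s0154g00320 had its midpoint on day -11.8, day -8.23 and day -2.51 in 2012, 2013 and 2014. VIT_18s0122g00290 had its midpoint later in each season, on day -4.04, day -5.02 and day 2.45.

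**Figure D2:**
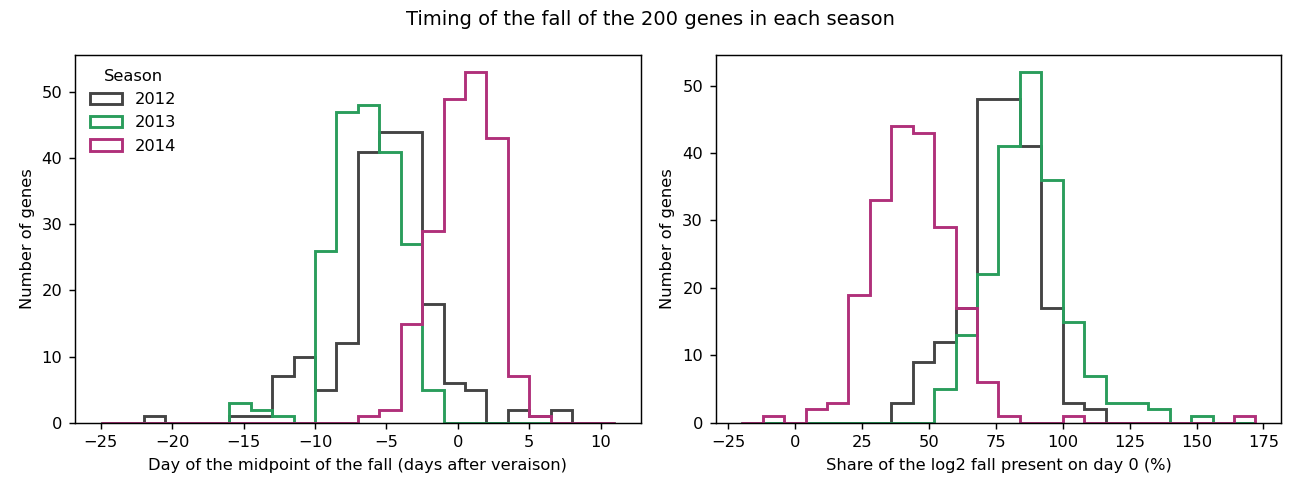
Histograms of the 200 genes for the day of the midpoint of the fall (left, days after veraison) and for the share of the log2 fall present on day 0 (right, percent), with 1 outline per season. The 2014 outline sits to the right in midpoint day (median 0.67, against -4.89 and -6.39) and to the left in share (median 43.3%, against 77.7% and 86.1%).

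On day 0 the levels themselves differed between seasons. The median RPKM of the 200 genes over the 6 libraries of day 0 was 0.950 at the lowest, 1.92 at the median and 6.47 at the highest in 2012. In 2013 these were 1.16, 1.37 and 1.63, and in 2014 they were 3.92, 9.26 and 17.1. The 2014 libraries were all above those of 2013 and overlapped with 1 library of 2012. In limma, 152 of the 200 genes were higher on day 0 of 2014 than of 2012, where 4.13% of all genes were higher, and 0 were lower (2.29% of all genes). The median log2 difference of the 200 was 1.37 and that of all genes 0.08. VIT_19s0177g00090, with a difference of 7.03 (SE 0.96, limma adjusted p = 2.66e-10), and VIT_07s0005g03420, with 6.00 (SE 0.90, limma adjusted p = 5.94e-09), led the list. They vary strongly between pools and are described below.

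Between 2013 and 2012 the day 0 levels were closer. In 2013, 13 genes were lower than in 2012 (0.53% of all genes), 0 were higher (0.717% of all genes), and the median log2 difference was -0.36. The lower end was led by VIT_18s0001g00820, with 2.02, 3.27 and 5.02 RPKM in 2013 and 3.01, 9.53 and 34.1 RPKM in 2012 (log2 difference -1.33, SE 0.25, limma adjusted p = 1.39e-05). VIT_01s0011g05390 had 0.427, 1.35 and 3.24 RPKM in 2013 and 0.490, 4.55 and 22.1 RPKM in 2012 (log2 difference -1.32, SE 0.25, limma adjusted p = 7.81e-06). In both genes the seasons overlapped. The count rested in part on single pools: it was 26 without replicate 1 and 7 without replicate 2 of each cell, and 44 (43 lower) with a pseudocount of 0.1.

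Sugar content, given in the labels for each library, also differed on day 0 of 2014. On day 0 it was 6.43 to 10.33 g/100 ml in 2012, 6.77 to 10.66 g/100 ml in 2013 and 1.20 to 4.65 g/100 ml in 2014. The day labelled veraison in 2014 thus held berries with less sugar than either other season, with no overlap. A comparison at near sugar contents was added after the data were seen. Day 0 of 2014, with a mean of 3.04 ± 1.15 g/100 ml (SD, n = 6), was set against day -6 of 2013, with 2.61 ± 0.52 g/100 ml (SD, n = 6).

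At these matched points the seasons lay closer together than on day 0. The median RPKM of the 200 genes was 4.74, 6.78 and 10.6 (lowest, median, highest) on day -6 of 2013 and 3.92, 9.26 and 17.1 on day 0 of 2014. In limma, 11 genes were higher in 2014 (0.871% of all genes) and 1 was lower (1.49% of all genes). The median log2 difference was 0.16, against -0.01 over all genes. An unadjusted p under 0.05 was found for 87 of the 200 genes (share of all genes not given here). The difference was at or above 0 in 129. The 2-fold threshold keeps smaller differences out of the count. The same 6 libraries of 2014 against day 0 of 2013 gave 174 genes higher (5.05% of all genes), 0 lower (2.79% of all genes) and a median log2 difference of 1.76. Both comparisons use the same 2014 libraries, and day -6 of 2013 belongs to the green mean by which the genes were chosen. A p that misses the threshold does not show equal levels, and without replicate 3 the matched count was 24 higher and 0 lower.

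VIT_00s0187g00060 was the 1 gene lower in 2014 at matched sugar, with 0.464, 1.09 and 1.63 RPKM against 0.556, 4.24 and 5.63 RPKM in 2013 (log2 difference -1.14, SE 0.14, limma adjusted p = 9.56e-12). It is also 1 of 3 genes whose level differed with the form of the RPKM values, a property of the table described at the end. With the form as a covariate, estimated from few libraries of 2013, its difference was -0.07 (limma adjusted p = 0.904). VIT_18s0122g00290, described above, was among the 11 higher, with a difference of 1.02 on the log2 scale (SE 0.29, limma adjusted p = 0.00323).

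Over all libraries the level fell as sugar rose, with a wide spread at intermediate sugar. Under 1 g/100 ml, the 39 libraries had a mean log2(RPKM + 1) of the 200 genes of 4.15 to 5.65, with a median of 5.25. From 1 to under 5 g/100 ml the 15 libraries had 2.46 to 4.58, from 5 to under 11 g/100 ml the 13 libraries had 1.31 to 2.95, and above 11 g/100 ml the 137 libraries had 0.55 to 1.75. Most of the fall was thus passed between about 1 and 11 g/100 ml. Seasons did not coincide there. From 1 to under 5 g/100 ml, the 3 libraries of 2012 had 4.26 to 4.58 at 1.37 to 1.78 g/100 ml. The 6 of 2013 had 2.59 to 3.60 at 1.60 to 3.03 g/100 ml, without overlap in level. The 6 of 2014 had 2.46 to 4.33 at 1.20 to 4.65 g/100 ml.

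**Figure D3:**
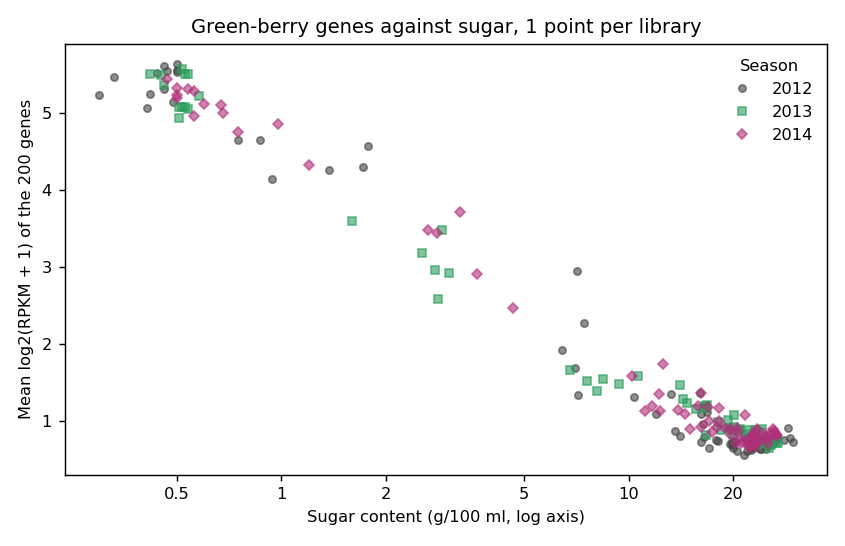
Mean log2(RPKM + 1) of the 200 genes in each library against the sugar content of its sample (g/100 ml, log axis), with 1 symbol and colour per season. Libraries of the 3 seasons descend from 5.65 to 0.55, and those between 1 and 11 g/100 ml lie on the slope. Between 1 and 5 g/100 ml the libraries of 2012 lie above all those of 2013.

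Sugar did not order the libraries exactly. On day 0 of 2012, the 3 libraries of the 50% intensity had 7.00 to 7.12 g/100 ml sugar, but the median RPKM of the 200 genes in replicates 1, 2 and 3 was 0.950, 6.47 and 1.61. Replicate pools differed most on day 0 of 2012 and 2014 and, with 75% thinning, on day -6 of 2013. The SD of the mean log2(RPKM + 1) over the 3 libraries of a cell, a cell being 1 time point and thinning intensity, was 0.45 to 0.85 on day 0 of 2012 and 2014, 0.51 with 75% thinning on day -6 of 2013, and 0.09 and 0.10 on day 0 of 2013. Its median was 0.12 over the 16 cells of green berries, 0.12 over the 16 cells of early ripening and 0.04 over the 12 cells of harvest.

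The thinning intensities were then compared, 75% minus 50%, with a gene called at a limma adjusted p under 0.05 whatever its fold. Over all time points and seasons, 1 of the 200 genes was lower with 75% thinning (0.64% of all genes) and 0 were higher (0.169% of all genes). The median log2 difference was -0.04. The gene was VIT_03s0063g00180, with a difference of -0.15 (SE 0.04, limma adjusted p = 0.0391). In green berries 1 gene was lower (0.0915% of all genes) and 0 were higher (0% of all genes). It was VIT_08s0007g06670, with a difference of -0.22 (SE 0.05, limma adjusted p = 0.0429). Neither call held without replicate 1 or without replicate 2.

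On day 0 the difference was larger. Over the 3 seasons, 67 of the 200 genes were lower with 75% thinning, where 5.75% of all genes were lower, and 0 were higher (1.69% of all genes). The median log2 difference of the 200 was -0.34, against -0.04 over all genes, and 192 were below 0. VIT_07s0005g03420 at -2.45 (SE 0.73, limma adjusted p = 0.0242) and VIT_07s0005g03410 at -2.44 (SE 0.72, limma adjusted p = 0.0221) had the largest differences, and both vary between pools. The count depended on single replicates: it was 110 lower without replicate 1, 7 lower and 1 higher without replicate 2, and 14 lower without replicate 3. It was 13 with a pseudocount of 0.1 and 28 after quantile normalization, which shifted the median of all genes by up to 0.11.

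Season by season, a comparison added after the data were seen, the lower calls on day 0 lay in 2014. There, 120 genes were lower with 75% thinning (9% of all genes) and 0 were higher (1.28% of all genes), with a median log2 difference of -0.75. In 2012, 0 genes were called in limma (0.197% of all genes lower, 0.135% higher) and 15 had an unadjusted p under 0.05. In 2013, 0 were called (0.00481% lower, 0% higher) and 0 had an unadjusted p under 0.05. For these unadjusted counts the share of all genes is not given here. Tested directly, the thinning difference in 2014 was lower than the mean of 2012 and 2013 for 18 genes (2.63% of all genes) and higher for 0 (0.0578% of all genes). That count was 12, 111 and 6 without replicates 1, 2 and 3.

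The libraries behind the 2014 comparison overlap. The median RPKM of the 200 genes in replicates 1, 2 and 3 was 8.48, 17.1 and 10.0 with 50% thinning and 5.91, 10.1 and 3.92 with 75% thinning. The highest 75% library was above 2 of the 3 libraries of the 50% intensity. For single genes, every 75% library was below every 50% library in 41 of the 200 genes, against 16.6% of all tested genes. Such a separation was thus not particular to the 200. On day 0 of 2012 and 2013 it was found in 0 and 10 of them, against 6.56% and 5.45% of all tested genes. Sugar on day 0 of 2014 was 2.80, 1.20 and 3.28 g/100 ml with 50% thinning. With 75% thinning it was 3.67, 2.65 and 4.65 g/100 ml. The intensity with more sugar on average had the lower levels, and within each intensity the library with the least sugar had the highest level. The part of sugar in the thinning difference was not tested. VIT_19s0090g01000, the most abundant of the genes, had 1285, 2183 and 1453 RPKM with 50% thinning and 1069, 1256 and 588 RPKM with 75% thinning, without overlap (log2 difference -0.79, SE 0.18, limma adjusted p = 0.00113).

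**Figure D4:**
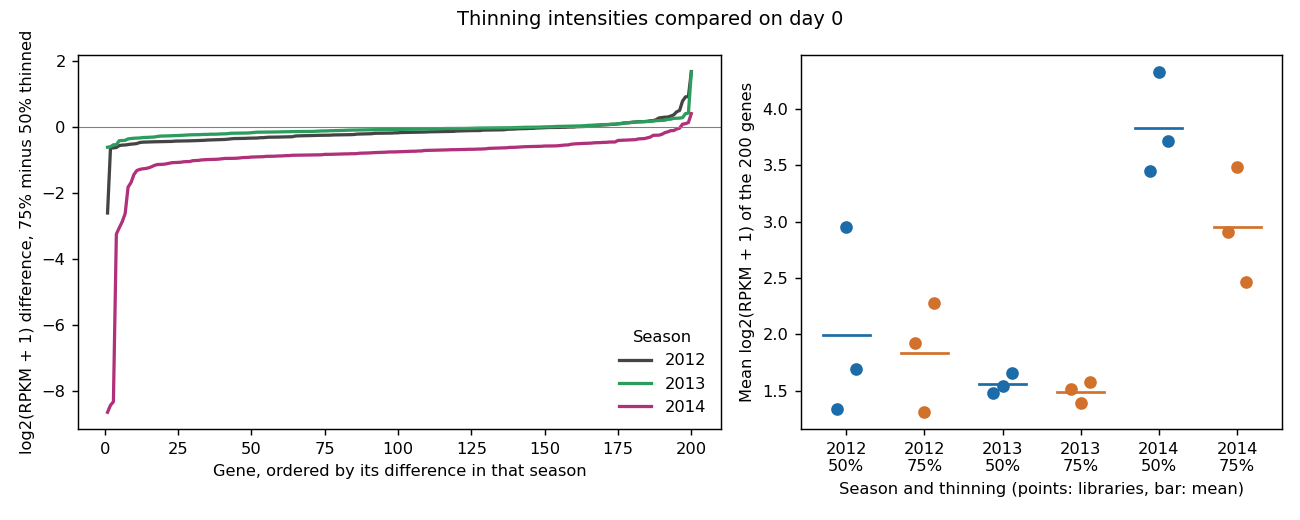
Left, the log2(RPKM + 1) difference between thinning intensities (75% minus 50%) of each of the 200 genes on day 0, ordered within each season. Right, the mean log2(RPKM + 1) of the 200 genes in each library of day 0 (points) with the mean of each group of 3 (bars). The 2014 curve lies below 0 for 196 genes, with 3 genes below -8, and the right panel shows that the 2014 libraries of both intensities are higher than most of 2012 and 2013 and overlap each other.

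In early ripening the thinning difference was not detectable for these genes. By limma, 0 were lower (3.14% of all genes) and 0 higher (1.07% of all genes). An unadjusted p under 0.05 was found for 7 (share of all genes not given here). The median log2 difference was 0.00, rounded from -0.004. Levels were by then near 1 RPKM, where log2(RPKM + 1) compresses differences.

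Green berries of the 3 seasons were compared at time points with under 0.6 g/100 ml sugar, which are days -28 and -18 of 2012, days -20 and -13 of 2013 and day -14 of 2014. Between 2013 and 2012, 23 of the 200 genes were lower in 2013 (1.3% of all genes) and 16 were higher (2.71% of all genes). Between 2014 and 2012, 29 were lower in 2014 (4.55% of all genes) and 16 were higher (3.41% of all genes). Both comparisons share the 2012 libraries. The 2012 days lie earlier before veraison than those of the other seasons, so season and days before veraison cannot be told apart here. For 2014 the form of the RPKM values, described at the end, nearly coincides with the season too. With it as a covariate, estimated from few libraries of 2013, the balance turned to 30 genes higher and 16 lower.

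VIT_03s0063g02380 had 62.4, 98.8 and 209 RPKM (lowest, median, highest of 12 libraries) in 2013 and 276, 700 and 1133 RPKM in 2012, without overlap (log2 difference -2.60, SE 0.17, limma adjusted p = 1.62e-28). VIT_02s0154g00320 had 91.2, 297 and 505 RPKM in 2013 and 257, 1401 and 3134 RPKM in 2012 (log2 difference -2.07, SE 0.14, limma adjusted p = 2.50e-27). In the comparison of 2014 with 2012, VIT_07s0005g02220 had 9.14, 16.1 and 18.3 RPKM in 2014 and 131, 178 and 346 RPKM in 2012 (log2 difference -3.55, SE 0.23, limma adjusted p = 1.45e-30). VIT_00s0187g00060 had 3.79, 6.87 and 8.15 RPKM in 2014 and 53.2, 86.8 and 152 RPKM in 2012 (log2 difference -3.63, SE 0.12, limma adjusted p = 9.28e-60). It is 1 of 3 genes whose level differed with that form (log2 difference -1.28). Of these 4 genes, all but VIT_02s0154g00320 had seasons that did not overlap. The rise was led in both comparisons by VIT_19s0177g00090 (log2 differences 4.77 and 5.70, SE 0.68 and 0.83) and VIT_07s0005g03420 (3.46 and 3.66, SE 0.63 and 0.78).

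VIT_19s0177g00090, VIT_07s0005g03410 and VIT_07s0005g03420 jumped together in level between replicate pools of the same time point. In VIT_19s0177g00090 on day -18 of 2012, replicates 1, 2 and 3 of the 50% intensity had 635, 0.810 and 0.847 RPKM, and those of the 75% intensity had 0.278, 0.430 and 255 RPKM. Thus 1 pool of each intensity was far above the other 2. On day -7 of 2014 all 6 libraries were high, with 14842, 9397 and 789 RPKM at 50% and 2920, 22058 and 3431 RPKM at 75%. Over the 48 green libraries the gene was at 100 RPKM or more in 17 and under 1 RPKM in 17.

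The 3 genes moved together. Over all libraries, Pearson's r of log2(RPKM + 1) was 0.98 between VIT_19s0177g00090 and VIT_07s0005g03410, 0.98 between VIT_19s0177g00090 and VIT_07s0005g03420, and 1.00 (0.997) between the other two. All share the same libraries, and in many of these all 3 are at or near 0, so this is a description. In the 48 green libraries, 43 other tested genes had an r of at least 0.9 with the mean of the 3, and 0 of them were among the 200. Together the 3 genes held up to 3.69% of all RPKM in a green library, with a median of 0.00176%, whereas the other 197 held 0.288% to 2.87%, with a median of 1.63%.

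They led several comparisons above. On day 0 of 2014, VIT_19s0177g00090 had 6201, 3790 and 4831 RPKM with 50% thinning and 10.3, 2.16 and 47.3 RPKM with 75% thinning (log2 difference -8.66, SE 1.36, limma adjusted p = 3.01e-07). VIT_07s0005g03410 had 1193, 971 and 1538 RPKM with 50% thinning and 1.48, 0.380 and 11.3 RPKM with 75% thinning, a difference of -8.45 (SE 1.25, limma adjusted p = 5.82e-08). They also had the largest differences of the test of 2014 against the other 2 seasons, at -9.64 (SE 1.66, limma adjusted p = 8.98e-06) and -9.00 (SE 1.53, limma adjusted p = 6.58e-06). The groups of 3 pools do not overlap here, but pools of 1 group differed as widely on other days. Within the green stage of 2014 the 3 genes made up most of the 5 that rose, with VIT_07s0005g03420 at 5.11 and VIT_07s0005g03410 at 5.06, and the other 2 were VIT_08s0007g00330 and VIT_02s0154g00310, named after their values were seen. Without the 3 genes, the total of called genes in each comparison stayed within 1.5 times that given. By direction, the 5 that rose within the green stage of 2014 became 2, and the 2 lower late calls of 2014, described below, became 1.

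**Figure D5:**
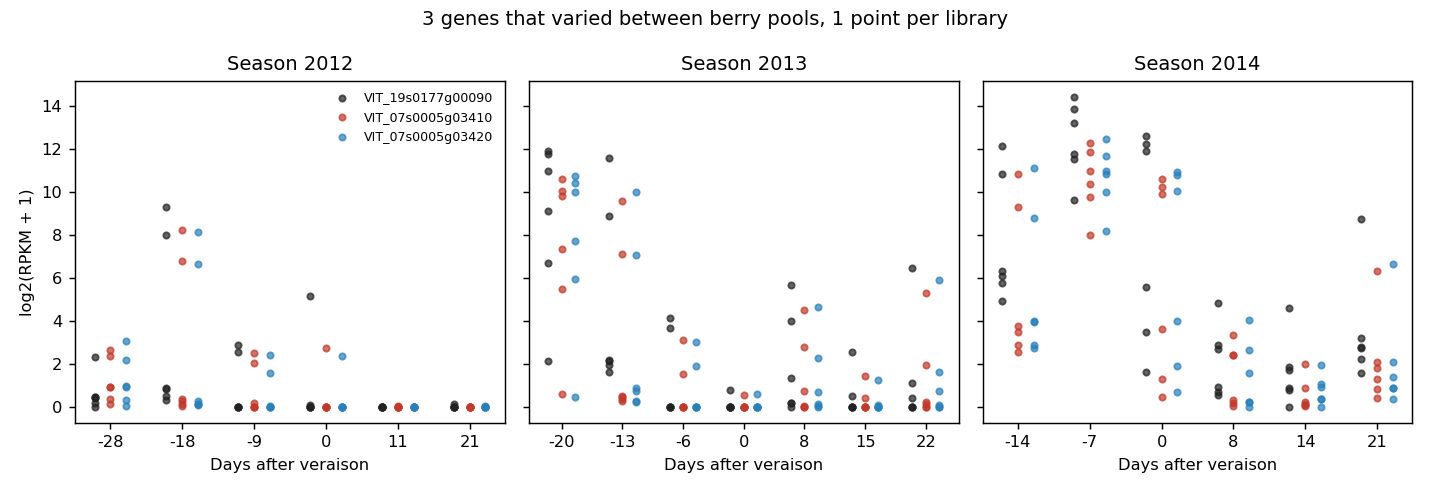
Log2(RPKM + 1) of VIT_19s0177g00090 (black), VIT_07s0005g03410 (red) and VIT_07s0005g03420 (blue) in each library from the green stage to early ripening, with 1 panel per season and the days after veraison on the x axis. At single time points, such as day -18 of 2012, libraries are spread from near 0 to over 8, and on day -7 of 2014 all libraries are at 8 or above.

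The 200 genes were more variable within cells than the tested genes as a whole. The SD of log2(RPKM + 1) within cells had a median of 0.29 over the 200 genes and of 0.17 over all tested genes. It was over 1 in 6 of the 200 genes, which is 3% of them, and in 0.746% of tested genes. Besides the 3 genes above these were VIT_10s0003g00100 (3.20), VIT_14s0066g02640 (2.70) and VIT_18s0001g00710 (1.13), named after their values were seen. These 3 hold values of exact 0 in libraries whose replicates are at 5 RPKM or more, which can be failed estimates. VIT_10s0003g00100 in replicates 1, 2 and 3 of day -13 of 2013 is listed at 0, 0 and 0 with 50% thinning and at 0, 566 and 180 RPKM with 75% thinning. Its log2 change from day -20 to day -13 of 2013, -5.06 (SE 1.83, limma adjusted p = 0.0351), rests on these values, as does its place among the 26 lower genes.

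A flat course from early ripening to harvest was part of the rule, so the late changes of these genes are small by choice. Between the first and the last time point of early ripening, averaged over seasons, 4 of the 200 genes were lower (1.16% of all genes) and 0 were higher (0.544% of all genes), with a median log2 change of -0.36 against 0.02 over all genes. The change was below 0 in 176 genes, and 142 had an unadjusted p under 0.05 (share of all genes not given here). Few reached 2-fold on this scale. A pseudocount of 0.1 in place of 1 gave 79 lower and 2 higher. VIT_15s0046g01190 went from 2.10, 3.21 and 4.74 RPKM on day 11 of 2012 to 0.909, 0.953 and 1.21 RPKM on day 21, and its mean log2 change over the seasons was -1.12 (SE 0.10, limma adjusted p = 1.70e-18). VIT_03s0063g02380 went from 0.598, 3.24 and 6.24 RPKM to 0, 0.447 and 1.88 RPKM on these days (mean log2 change -1.11, SE 0.14, limma adjusted p = 2.05e-11). The other 2 were VIT_18s0001g04920 and VIT_11s0016g03640, named after their values were seen.

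In mid ripening, 3 genes were lower on day 63 than on day 32 of 2012 (2.07% of all genes) and 2 were higher (0.881% of all genes). VIT_18s0001g11830 had 1.93, 9.80 and 11.1 RPKM on day 32 and 0.219, 0.554 and 1.29 RPKM on day 63, without overlap (log2 change -2.31, SE 0.28, limma adjusted p = 4.56e-12). On day 21 it had been at 0.875, 1.17 and 1.83 RPKM, so it rose briefly before it fell again. VIT_07s0104g00830 went the other way, from 2.34, 4.23 and 6.02 RPKM to 8.74, 10.0 and 12.5 RPKM (log2 change 1.17, SE 0.17, limma adjusted p = 5.51e-09), also without overlap. VIT_11s0016g03540 rose by 1.02 (SE 0.34, limma adjusted p = 0.0132), and VIT_03s0063g02620, named after its values were seen, was the third lower gene.

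VIT_04s0008g01590 shows that single late changes need not recur. It fell in 2012 from 1.17, 9.40 and 17.3 RPKM on day 32 to 0.548, 1.13 and 25.8 RPKM on day 63 (log2 change -1.48, SE 0.48, limma adjusted p = 0.00866). In 2014 it rose from 8.27, 8.69 and 14.3 RPKM on day 28 to 10.3, 25.1 and 80.3 RPKM on day 49 (log2 change 1.30, SE 0.48, limma adjusted p = 0.0229). The ranges overlapped in both seasons, and neither call held without replicate 2 or without replicate 3.

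The other late calls of 2014 numbered 1 higher and 2 lower, for totals of 2 higher (1.19% of all genes) and 2 lower (1.64% of all genes). VIT_19s0085g01050 rose from 1.44, 2.04 and 3.61 RPKM to 1.64, 10.3 and 62.2 RPKM (log2 change 1.61, SE 0.49, limma adjusted p = 0.00505). VIT_14s0066g02640 had 60.4 to 123 RPKM on day 28, and on day 49 replicates 1, 2 and 3 are listed at 0, 73.6 and 0 RPKM with 50% and at 0, 56.8 and 0 RPKM with 75% thinning. Its log2 change of -4.22 (SE 1.54, limma adjusted p = 0.0228) thus comes from listed zeros beside libraries near the day 28 level. VIT_19s0177g00090 was the second lower gene, at -2.48 (SE 0.96, limma adjusted p = 0.0326). Without replicate 3, 0 of these 4 were called.

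Facts of the table bear on these values. Library sums of RPKM ran from 817623 to 1105140, with a median of 925588, and read depth is unknown. The values come in 2 forms: 83 libraries, all 72 of 2014 and 11 of 2013, list at least 31 of 9114 steadily expressed genes under 0.5 RPKM, whereas the others list at most 14. Its effect can be estimated only from the 2013 cells that hold both forms. These are day -20 and day -6 with 75% thinning, where replicate 2 alone listed many such genes that low. In that estimate the form was tied to lower values in 3 of the 200 genes, VIT_13s0019g01040 (log2 difference -1.54), VIT_00s0187g00060 (-1.28) and VIT_18s0001g12180 (-1.17). Both are green libraries, so every use of the form as a covariate in 2014 carries their difference over to another season. Form and season nearly coincide for 2014, so they cannot be told apart there: with the form as a covariate the green comparison of 2014 with 2012 had 30 genes higher and 16 lower, against 16 and 29 without it.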

How the data were processed

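RNA-seq libraries were not strand-specific, per the labels' protocols, so reads of overlapping antisense genes cannot be told apart. The authors deposited RPKM values, made with TopHat2 2.0.6 and Cufflinks 2.0.2 per the submitters' processing notes. No counts or depths were used. Settings, genome build and annotation are not given in any source used here. Season and replicate came from titles and source names; a year tag differs from the season for 134 libraries.

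Values were analysed as log2(RPKM + 1) in the 20770 genes that reached 1 RPKM in 3 or more libraries. This scale understates changes of low genes. limma 3.58.1 in R 4.3.3 was fitted to all libraries with a mean per cell of season, time point and thinning intensity, an intensity trend and Benjamini-Hochberg adjustment over all genes. The mean thinning difference came from a model with a term per time point and 1 thinning term for each season. The fits were tested on simulated data. Descriptions used Python 3.11.15 and pandas 2.3.3.

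The 200 genes, the lists and the tests were chosen with earlier results of these data known. At most 2 genes that rose and 2 that fell past the threshold, by size, were named per comparison, with the 2 deepest falls. Functional lists, seed and tissue markers and promoter motifs gave no value, since the RefSeq gene table given holds 0 of the 29971 IDs. The labelled pericarp was therefore not checked by markers. Alternatives were a pseudocount of 0.1, no filter on low values, median ratio scaling, quantile normalization, a replicate block, the form of the values as a covariate, and leaving out replicates.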

Additional observations from a re-analysis of the deposited data

Results flagged for a closer look

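The thinning difference on day 0 differed between seasons for 18 of the 200 genes, by an interaction term in limma (adjusted p under 0.05). Of all genes, 2.63% were called lower and 0.0578% higher. The count depended strongly on which replicate was left out, as given above. The largest differences were those of VIT_19s0177g00090 and VIT_07s0005g03410, which vary between pools. In each of the 18 the difference, 75% minus 50%, was lower in 2014 than in the mean of 2012 and 2013. Over all 200 genes the median of this log2 difference of differences was -0.61, below 0 in 194, and over all tested genes it was -0.07. Sugar on day 0 of 2014 was 2.43 ± 1.09 g/100 ml with 50% and 3.66 ± 1.00 g/100 ml with 75% thinning (SD, n = 3 each). On day 0 of 2012 it was 7.07 ± 0.06 and 8.07 ± 2.02 g/100 ml, and of 2013 8.20 ± 1.33 and 8.78 ± 1.65 g/100 ml (SD, n = 3 each). The part of sugar in the difference was not tested.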

How the results depend on the processing

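Of 258 recomputed values for 25 results, 217 stayed on the same side and within 1.5 times or 1 SD. The cause of the others was not tested. The planned replicate block, by number within season, moved no count by over 1.5 times (day 0 thinning, 65 of the 200 genes). The numbers do not pair libraries: the deviations of 35 of 102 same-numbered pairs correlated above 0.1 (median 0.03, lowest -0.42, highest 0.75), and 41 libraries correlated best with their own number. Under a pseudocount of 0.1 the rule kept 74 of the 200 genes. Counts of called genes then became 0 for thinning over all time points and in green berries, 13 on day 0, 7 for 2014 against the other seasons, 25 on day 0 of 2014 and 1 in early ripening. They became 44 for day 0 of 2013 against 2012, 81 within early ripening, and 18 and 10 in mid ripening of 2012 and 2014. The share of the fall on day 0 became 69.2% in 2012 and 77.5% in 2013. A bound of 0.5 on the late change kept 132 genes, and 50 were kept under all alternatives of the rule. Quantile normalization gave 0 for thinning over all time points, 28 on day 0 and 76 on day 0 of 2014. The form as a covariate gave 0 for thinning over all time points and in green berries and turned the balance of the green comparison of 2014 with 2012 (46 genes, 30 higher). Leaving out each replicate gave 0 to 0 for thinning over all time points, 0 to 4 in green berries (the 2 without replicate 1 were higher), 8 to 110 on day 0, 0 to 0 in early ripening, 6 to 111 for the season contrast and 16 to 98 on day 0 of 2014. For seasons it gave 37 to 41 and 37 to 43 in green berries, 7 to 26 and 130 to 163 on day 0, 153 to 183 for 2014 against 2013 and 10 to 24 at matched sugar. Within stages it gave 112 to 117, 17 to 32 and 20 to 23 in the green stage of 2012, 2013 and 2014, 3 to 10 in early ripening, and 5 to 6 (5 without replicate 2, 3 of them higher) and 0 to 2 in mid ripening of 2012 and 2014. It gave 197 to 199, 199 to 200 and 197 to 197 for the left-out seasons and 190 to 193 for membership. Of 45 named results, 18 lost their call under at least 1 alternative. Without known depth, levels under about 1 RPKM are not resolved.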

Other observations

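By the start of the ID, 23 of the 200 genes began with VIT_18, which is 11.5% of them against 7.58% of all tested genes. A further 17 began with VIT_13 (8.5% against 5.51%) and 16 with VIT_01 (8% against 5.62%). At the other end, 3 began with VIT_06 (1.5% against 5.10%). These shares were not tested.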
